A study of Homo sapiens with 24 samples.

Results

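The genes described are 8 that encode the first steps of signalling from the B-cell receptor, namely SYK, ZAP70, BTK, BLNK, PLCG2, CD79A, CD79B and PTPN6. They were chosen by gene symbol, by a rule that names no measured value, though with earlier results of these data known, from an array table of 25575 rows and 25161 symbols, and each of the 8 had a single row. The table came from 24 Clariom D arrays, which measure the whole transcriptome, of 2 B-lymphoma cell lines. SU-DHL-4 is an established line of diffuse large B-cell lymphoma (DLBCL), and DG-75 is an established line of Burkitt's lymphoma (BL). Cells were kept for 72 h with DMSO, the solvent control, or with Entospletinib at 1 µM (Ento), AZD5153 at 0.01 µM (AZD) or the combination at these concentrations (Ento+AZD), and each of the 8 groups had 3 replicates. Ento inhibits the kinase SYK, and AZD is a bivalent inhibitor of the bromodomain and extra-terminal (BET) proteins, which read acetylated chromatin. Each tumor type was represented by 1 line, so that a difference between the lines cannot be told apart from a difference between the tumor types. The study's methods describe its samples in general as biologically independent, while the labels of these arrays do not say whether replicates came from separate cultures, so p-values measure the spread between these samples.

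In a B cell, CD79A and CD79B form the pair of chains that carries the signal of the surface immunoglobulin into the cell. Once antigen is bound, kinases of the SRC family phosphorylate these chains, SYK docks on them and becomes active, and SYK phosphorylates the adaptor BLNK. BLNK gathers the kinase BTK and the phospholipase PLCG2, which then produces the messengers for calcium release and protein kinase C. PTPN6 encodes SHP-1, a phosphatase that inhibitory coreceptors recruit to damp the signal, and ZAP70 is the relative of SYK that T cells use. The BET proteins act on transcription, whereas Ento acts on the SYK protein, so the arrays report mRNA and not kinase activity.

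The stretches in front of the transcription start are shown for the target kinase SYK, for BTK and CD79A, whose values separated the lines, and for PTPN6, which spanned the widest range between groups. Of the 8 members, 7 matched RefSeq's table of start sites (build GRCh38.p14), and CD79B did not. Each sequence is the 250 bases before the start, read 5′ to 3′ on the gene's own strand. SYK has 3 start sites in that table and BTK and PTPN6 have 2 each, which their array rows do not separate. Both are shown for PTPN6, and the first along the gene for SYK and BTK. Capitals mark 4 motifs searched on both strands, the octamer ATGCAAAT, the EBF1 motif (TCCC and GGGA with 2 bases of any kind between them), the PU box GAGGAA and the E box CAGGTG. In these 5 stretches no 2 matches overlapped.
PTPN6 start site 1, chr12:6946327-6946576, plus strand: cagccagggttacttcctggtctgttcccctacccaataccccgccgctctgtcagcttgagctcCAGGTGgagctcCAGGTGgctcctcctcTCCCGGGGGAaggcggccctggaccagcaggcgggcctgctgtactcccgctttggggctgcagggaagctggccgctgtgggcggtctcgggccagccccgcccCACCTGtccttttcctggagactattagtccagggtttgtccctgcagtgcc
PTPN6 start site 2, chr12:6951106-6951355, plus strand: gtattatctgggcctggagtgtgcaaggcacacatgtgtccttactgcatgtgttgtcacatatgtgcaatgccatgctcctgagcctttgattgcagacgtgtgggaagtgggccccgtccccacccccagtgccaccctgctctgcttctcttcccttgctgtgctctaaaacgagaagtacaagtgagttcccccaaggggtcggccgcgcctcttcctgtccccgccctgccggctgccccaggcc
CD79A start site 1, chr19:41877029-41877278, plus strand: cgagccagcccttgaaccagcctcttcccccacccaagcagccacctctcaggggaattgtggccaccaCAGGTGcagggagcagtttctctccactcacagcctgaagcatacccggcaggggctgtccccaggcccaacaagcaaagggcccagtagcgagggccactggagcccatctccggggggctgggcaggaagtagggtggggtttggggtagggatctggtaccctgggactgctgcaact
BTK start site 1, chrX:101390797-101391046, minus strand: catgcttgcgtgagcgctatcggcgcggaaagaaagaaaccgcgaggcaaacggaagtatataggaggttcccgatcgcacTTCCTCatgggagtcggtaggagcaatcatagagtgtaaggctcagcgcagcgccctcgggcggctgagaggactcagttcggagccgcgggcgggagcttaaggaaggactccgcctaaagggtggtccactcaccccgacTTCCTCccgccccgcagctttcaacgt
SYK start site 1, chr9:90801350-90801599, plus strand: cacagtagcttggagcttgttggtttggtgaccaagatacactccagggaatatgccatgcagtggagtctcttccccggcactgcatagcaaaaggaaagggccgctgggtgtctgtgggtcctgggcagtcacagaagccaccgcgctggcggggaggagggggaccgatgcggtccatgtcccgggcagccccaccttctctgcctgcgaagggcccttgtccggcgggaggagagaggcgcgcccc
The first PTPN6 stretch held the EBF1 motif 157 to 148 bases before the start, together with 3 E boxes. Of 35116 start sites in the table, 1.06% had the EBF1 motif in a stretch of this length and 17.5% had the E box. The CD79A stretch had 1 E box, 181 to 176 bases before the start, and the BTK stretch had 2 PU boxes, at 169 to 164 and at 27 to 22 bases. The PU box occurred before 23.6% of all start sites and the octamer before 1.63%. The second PTPN6 stretch, the SYK stretch shown and the BTK stretch not shown held none of the 4 motifs, which says only that these letters are not in these windows. Of the SYK stretches not shown, the second had 2 PU boxes and 1 E box and the third 1 PU box.

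Array medians lay between 4.89 and 5.14 on the log2 scale, and replicate arrays correlated at 0.981 to 0.992 across all rows. All 8 of 8 B-cell markers (such as MS4A1, PAX5 and CD74) were above the array's median on every array of both lines. Of 10 T-cell markers, 7 (SU-DHL-4) and 8 (DG-75) were below the median on every array, among them CD3D, CD3G and CD2, and 2 (CD7 and LAT) were above it on every array of both lines. MS4A1, which encodes CD20, lay between 11.27 and 11.83 in SU-DHL-4 and between 6.22 and 7.995 in DG-75. The values are probe intensities summarised per gene, so a gene's level is set against the median of the array or table only as a rough guide, genes are not ranked by level, and no detection threshold was used.

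**Figure D1:**
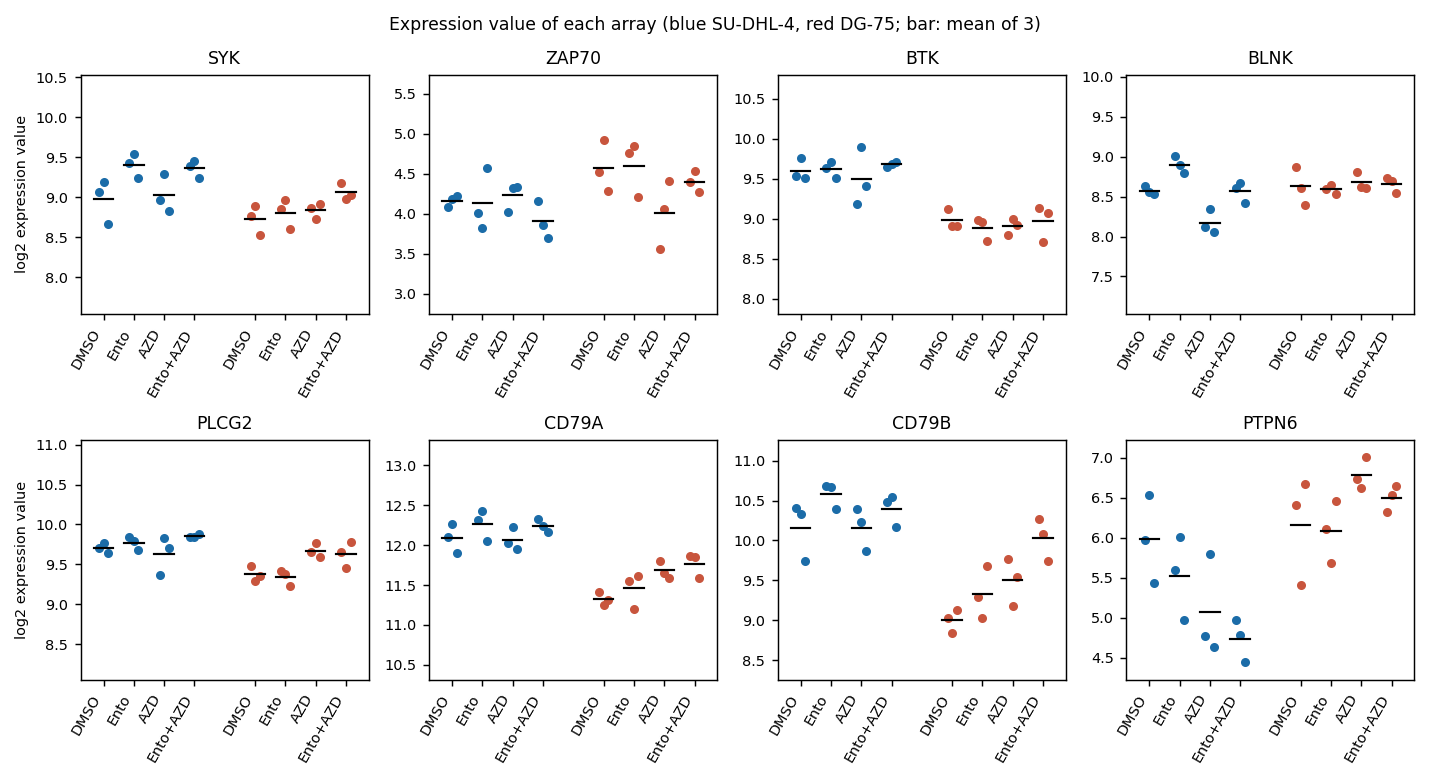
Log2 expression value (vertical axis, 3 units high in every panel) of the 8 members on each of the 24 arrays, by treatment, with SU-DHL-4 in blue and DG-75 in red and a bar at the mean of 3 replicates. In DG-75, CD79B is highest under Ento+AZD, at a mean of 10.03, whereas PTPN6 is lowest in SU-DHL-4 under Ento+AZD, at 4.73.

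The members differed in how far their group means were spread. The difference between the highest and the lowest of the 8 group means was 2.06 for PTPN6 and 1.58 for CD79B on the log2 scale. It was between 0.51 (PLCG2) and 0.94 (CD79A) for the other 6. For BTK and CD79A, the 12 SU-DHL-4 arrays were all above the 12 DG-75 arrays, while the ranges of the lines overlapped for the rest. The share of all rows that separated the lines in this way was not computed, so this is a description. In SU-DHL-4, replicate 3 had the lowest value of its group under all 4 treatments for SYK, BLNK, CD79A, CD79B and PTPN6.

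A gene counted as called when its adjusted p was under 0.05 (limma with Benjamini-Hochberg adjustment over all 25575 rows) and it changed by more than 2-fold, with the replicate number as a term within each line. By this rule 6 of the 192 values (8 members in 24 comparisons) were called, and they belonged to PTPN6 and CD79B. The receptor chain CD79B was higher under Ento+AZD than under DMSO in DG-75 (0.833% of all rows called), and the phosphatase gene PTPN6 was lower in SU-DHL-4 (1.19%). The other called values were differences between the lines and not responses to treatment. In those comparisons 6.51% to 8.03% of all rows were called. No change of SYK, ZAP70, BTK, BLNK, PLCG2 or CD79A was called in any comparison.

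CD79B measured 9.03, 8.84 and 9.13 in the DG-75 DMSO replicates 1 to 3. Under Ento+AZD it measured 10.27, 10.08 and 9.75, so that the ranges did not overlap. The change was 1.03 ± 0.19 on the log2 scale (SE, n = 3 against 3), a 2.04-fold increase, with limma's adjusted p = 0.0227 and a 95% interval of 0.62 to 1.44. Same-numbered arrays differed by 1.23, 1.25 and 0.61, so the increase was found in each, smallest in replicate 3. CD79B was 9.30, 9.03 and 9.68 under Ento alone and 9.77, 9.18 and 9.54 under AZD alone, with means of 9.34 and 9.50 between those of DMSO (9.00) and Ento+AZD (10.03). Their changes were 0.33 and 0.50 (limma's adjusted p = 1.00 and 0.255). The call depended on single arrays. Leaving out each array of the comparison or each replicate number in turn gave values of 0.87 to 1.26, and the call held in 1 of the 9 fits, the one without Ento+AZD replicate 3. It was lost without DMSO replicate 1 (adjusted p = 0.174), 2 (0.0646) or 3 (0.0685) and without Ento+AZD replicate 1 (0.152) or 2 (0.0803), each from limma. Leaving out replicate numbers 1, 2 and 3 gave adjusted p = 0.375, 0.156 and 0.0562 from limma. The summed log2 value of the 8 B-cell markers, which do not include CD79B, was 69.2 to 70.9 in the DG-75 DMSO arrays and 71.2 to 74.5 under Ento+AZD. The sum of the 10 T-cell markers was 37.6 to 39.5 and 36.8 to 37.3, and the sums of the other 4 marker lists overlapped. Their part in the result was not tested. In these bulk samples fewer cells of a type and less RNA per cell cannot be told apart.

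In SU-DHL-4, CD79B was 10.41, 10.33 and 9.74 under DMSO and 10.48, 10.54 and 10.17 under Ento+AZD, and these ranges overlapped. Under Ento it was 10.68, 10.67 and 10.39, and under AZD 10.39, 10.23 and 9.87. The change was 0.42 ± 0.14 (SE) under Ento, with an unadjusted p = 0.0102 and adjusted p = 0.465 in limma, and 0.24 under Ento+AZD (limma's adjusted p = 0.501). The Ento+AZD changes of SU-DHL-4 (0.24) and DG-75 (1.03) differed by -0.80 ± 0.23, which was not called (limma's adjusted p = 0.345).

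CD79A, the partner chain, measured 12.10, 12.27 and 11.90 in SU-DHL-4 under DMSO and 11.42, 11.24 and 11.31 in DG-75. In DG-75 it was 11.55, 11.21 and 11.62 under Ento, 11.81, 11.65 and 11.59 under AZD and 11.86, 11.85 and 11.59 under Ento+AZD. Both AZD-containing groups lay above the DMSO arrays. The changes were 0.36 under AZD (limma's adjusted p = 0.288) and 0.44 ± 0.14 (SE) under Ento+AZD (0.147), neither of them called. SU-DHL-4 values under treatment lay between 11.95 and 12.43, and no change from DMSO exceeded 0.17. After the mean of each line was subtracted, CD79A and CD79B had a Pearson correlation of 0.857 over the 24 arrays, the highest of the pairs of members. This is a description, since arrays of a group share their treatment.

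SYK, the target of Ento, measured 9.06, 9.18 and 8.66 in SU-DHL-4 under DMSO and 9.43, 9.54 and 9.23 under Ento. Every Ento array was above every DMSO array, and same-numbered arrays differed by 0.36, 0.36 and 0.57. The change was 0.43 ± 0.14 on the log2 scale (SE, n = 3 against 3), or 1.35-fold, with an unadjusted p = 0.00822 and adjusted p = 0.449 in limma, which did not pass the threshold. Under AZD SYK was 8.96, 9.29 and 8.83, a change of 0.06. Under Ento+AZD it was 9.39, 9.45 and 9.24, a change of 0.39 (limma's adjusted p = 0.200), again with no overlap with DMSO. In DG-75 SYK was 8.76, 8.89 and 8.52 under DMSO, 8.85, 8.96 and 8.60 under Ento and 8.87, 8.73 and 8.91 under AZD. Under Ento+AZD it was 9.17, 8.98 and 9.02, above every DMSO array, with a change of 0.34 (limma's adjusted p = 0.278). The order of the group means ran from 9.40 (SU-DHL-4 Ento) and 9.36 (SU-DHL-4 Ento+AZD) to 8.72 (DG-75 DMSO). The only neighbours in that order whose ranges did not overlap were SU-DHL-4 Ento+AZD and DG-75 Ento+AZD, whose mean was 9.06.

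Over both lines, with replicate number within line as a term, SYK was higher under Ento+AZD than under DMSO by 0.36 ± 0.10 (SE, n = 6 against 6; limma's adjusted p = 0.0220) and CD79B by 0.63 ± 0.15 (limma's adjusted p = 0.0113). Both passed the adjusted p alone, and neither passed the fold minimum. At the adjusted p alone 2 of 8 members passed, beside 8.49% of all rows. Tested against a 1.2-fold change, neither passed (limma's adjusted p = 1.00 and 0.358). CD79B passed in each of 12 fits with an array left out. SYK was 0.32 to 0.41 in these fits and passed in 6, and limma's adjusted p was 0.0506 to 0.0692 in the others, which lacked DMSO replicate 2 or 3 or Ento+AZD replicate 3 of SU-DHL-4, or DMSO replicate 3 or Ento+AZD replicate 1 or 3 of DG-75. ZAP70, the T-cell relative of SYK, lay between 3.56 and 4.92 on all 24 arrays, below the table's median row mean of 5.05. Its largest change from DMSO was -0.57 ± 0.23 (SE) under AZD in DG-75, where the arrays read 3.56, 4.06 and 4.41 after 4.52, 4.92 and 4.29 under DMSO (limma's adjusted p = 0.290).

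The adaptor BLNK differed between the 2 single agents in SU-DHL-4. It measured 8.63, 8.55 and 8.54 under DMSO, 9.00, 8.89 and 8.80 under Ento and 8.12, 8.35 and 8.05 under AZD. The 3 groups did not overlap. Against DMSO the values were 0.33 under Ento (limma's adjusted p = 0.541) and -0.40 under AZD (0.286), neither past the threshold. AZD against Ento gave -0.72 ± 0.14 (SE, n = 3 against 3), with limma's adjusted p = 0.0366, which passed the adjusted p (0.567% of all rows did so, and 1 of 8 members) and not the fold minimum. It passed in 1 of 9 fits with an array or number left out, the one without AZD replicate 2, and limma's adjusted p was 0.0719 to 0.664 in the others. It also did not pass with only the arrays compared in the fit (limma's adjusted p = 0.468), after quantile normalization (0.0665) or when tested against a 1.2-fold change (0.410). Under Ento+AZD BLNK was 8.61, 8.67 and 8.42, a change of -0.01 from DMSO. In DG-75 all 12 values lay between 8.40 and 8.88, and no change from DMSO exceeded 0.05 in size.

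BTK, the kinase that BLNK brings to PLCG2, lay between 9.18 and 9.89 in SU-DHL-4 and between 8.71 and 9.14 in DG-75. Its changes from DMSO were between -0.10 and 0.08 in SU-DHL-4 and between -0.09 and -0.01 in DG-75. The 95% intervals of the Ento+AZD changes, -0.26 to 0.42 in SU-DHL-4 and -0.34 to 0.33 in DG-75, left out a change of 2-fold. PLCG2, which cleaves the membrane lipid that yields the calcium signal, was 9.49, 9.30 and 9.36 in DG-75 under DMSO. It was 9.65, 9.76 and 9.60 under AZD, above all DMSO arrays, and 9.66, 9.45 and 9.78 under Ento+AZD, which overlapped them. These changes were 0.29 and 0.25 (limma's adjusted p = 0.378 and 0.413). In SU-DHL-4 its differences from DMSO were -0.07 to 0.15 (limma's adjusted p = 0.728 or more).

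PTPN6, the gene of the phosphatase SHP-1, had the largest changes of the 8. In SU-DHL-4 it measured 5.97, 6.53 and 5.44 under DMSO and 4.98, 4.78 and 4.44 under Ento+AZD, with no overlap. The change was -1.25 ± 0.20 on the log2 scale (SE, n = 3 against 3), 2.38-fold lower, with limma's adjusted p = 0.00911 and a 95% interval of -1.68 to -0.81. The mean under Ento+AZD (4.73) was below the table's median row mean of 5.05, and no detection threshold was used, so this fold and those between the lines are of probe values and may not give the ratio of transcripts. Same-numbered arrays differed by -0.995, -1.75 and -1.0004. Ento alone gave 5.60, 6.01 and 4.97, and AZD alone 4.78, 5.80 and 4.64, so replicate 2 was the highest and replicate 3 the lowest under DMSO and both single agents. The changes were -0.46 ± 0.20 (SE) under Ento (limma's adjusted p = 0.559) and -0.91 ± 0.20 under AZD (limma's adjusted p = 0.103), neither called. The Ento+AZD call rested on the replicate number in the fit: without it the same value had an adjusted p = 0.144 in limma. The call held in 5 of 9 fits with arrays or numbers left out, with values of -1.41 to -0.98. It was lost without DMSO replicate 2 (limma's adjusted p = 0.0784), without Ento+AZD replicate 2 (0.0512), without number 2 (0.0730) and without number 3 (0.114). In the same SU-DHL-4 arrays the summed log2 value of the 10 T-cell markers was 39.0 to 40.4 under DMSO and 37.9 to 38.4 under Ento+AZD, that of 5 plasma cell markers was 29.1 to 29.53 and 29.54 to 31.2, and the sums of the other 4 marker lists overlapped. Their part in the result was not tested.

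In DG-75, PTPN6 measured 6.41, 5.40 and 6.67 under DMSO and 6.11, 5.69 and 6.46 under Ento. It was 6.73, 6.62 and 7.01 under AZD and 6.33, 6.54 and 6.65 under Ento+AZD. Only the AZD and Ento groups did not overlap, and DMSO replicate 2 was the lowest of the 12 arrays. The changes were -0.08 under Ento, 0.63 ± 0.21 (SE) under AZD (limma's adjusted p = 0.205) and 0.34 under Ento+AZD (limma's adjusted p = 0.483). Same-numbered arrays differed by 0.32, 1.22 and 0.34 under AZD, positive in each, where the SU-DHL-4 arrays differed by -1.20, -0.73 and -0.80. Under Ento+AZD the same-numbered differences in DG-75 were -0.09, 1.14 and -0.02, so only replicate 2 was above its DMSO array. The order of the group means put all 4 DG-75 groups (6.79 to 6.08) above the 4 SU-DHL-4 groups (5.98 to 4.73), and every neighbouring pair in that order overlapped.

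**Figure D2:**
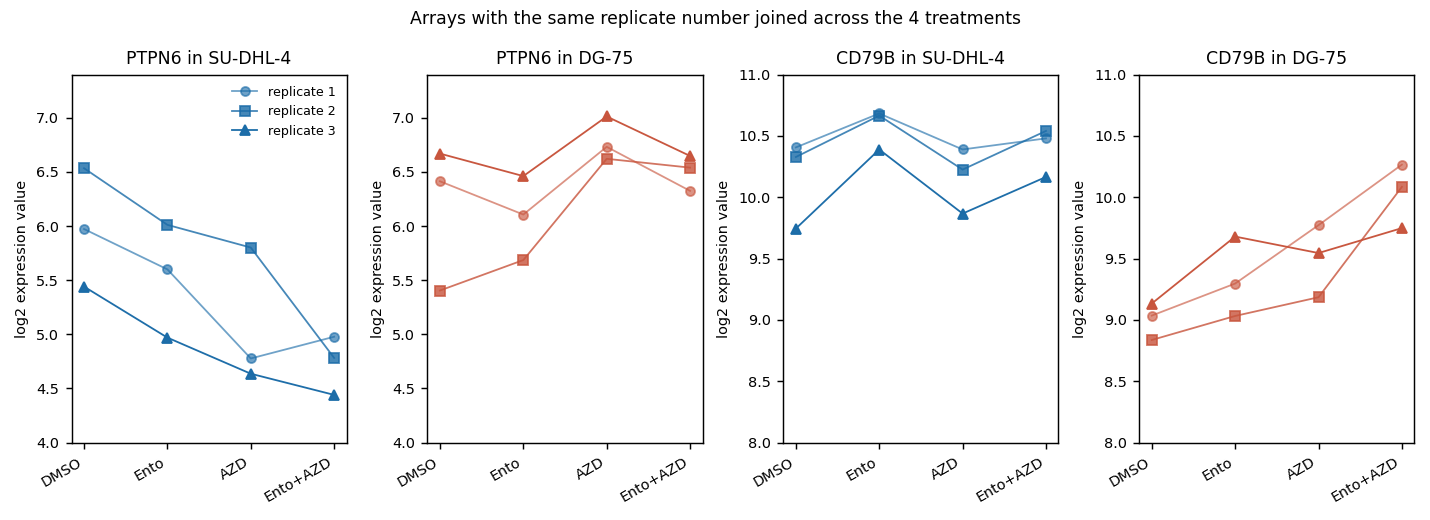
Log2 expression values of PTPN6 (2 left panels) and CD79B (2 right panels) under the 4 treatments, with arrays of the same replicate number joined; each gene has its own vertical range. All 3 lines for PTPN6 in SU-DHL-4 end lower under Ento+AZD than under DMSO (by 1.00 to 1.75), and all 3 for CD79B in DG-75 end higher (by 0.61 to 1.25).

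Against DMSO in SU-DHL-4, the number of members called was 0 of 8 under Ento, where 0.0508% of all rows were called, 0 of 8 under AZD (0.18%) and 1 of 8 under Ento+AZD (1.19%). At an unadjusted p under 0.05 in limma there were 4, 2 and 2 of 8, beside 8.59%, 11.5% and 14% of all rows. In DG-75 the numbers called were 0 under Ento (0.00391% of all rows), 0 under AZD (0.18%) and 1 under Ento+AZD (0.833%), with 0, 4 and 3 members at an unadjusted p under 0.05 in limma, beside 2.81%, 13.8% and 16% of all rows. Over both lines 0 members were called under Ento (0.00782% of rows), AZD (0.254%) and Ento+AZD (0.856%), and 2, 0 and 3 had an unadjusted p under 0.05 in limma, beside 6.36%, 18% and 21.1% of rows. These comparisons share their DMSO arrays. The median change of the 8 members was 0.12, -0.05 and 0.12 in SU-DHL-4 under Ento, AZD and Ento+AZD, where all rows had medians of -0.06, -0.08 and -0.08. In DG-75 it was 0.00, 0.20 and 0.29, where all rows had 0.00, -0.06 and -0.07.

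**Figure D3:**
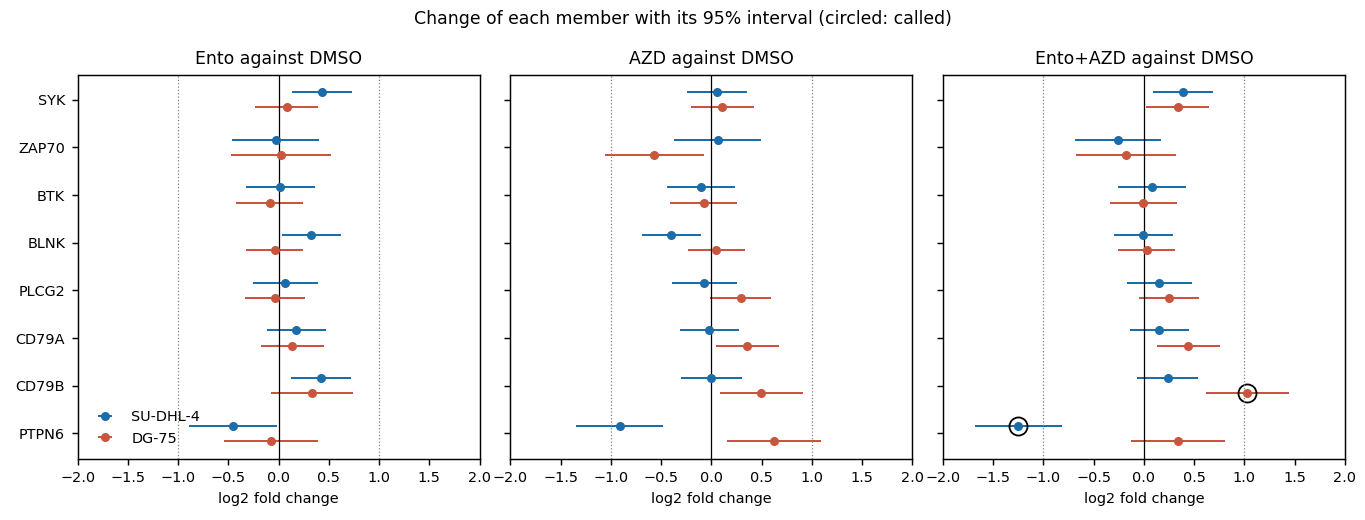
Log2 fold change of each member against DMSO (horizontal axis) under Ento, AZD and Ento+AZD, with its 95% interval from limma, in SU-DHL-4 (blue) and DG-75 (red); dotted lines mark a 2-fold change and circles the called values. The circled values are PTPN6 in SU-DHL-4 (-1.25) and CD79B in DG-75 (1.03) under Ento+AZD.

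Between treatments, no member was called for Ento+AZD against Ento in SU-DHL-4 (0.0821% of rows called) or DG-75 (0.657%), for Ento+AZD against AZD (0.0274% and 0%), or for AZD against Ento (0.379% and 0.344%). At an unadjusted p under 0.05 in limma, these comparisons had 2 and 1, 2 and 1, and 4 and 3 members, beside 9.67% and 14.8%, 7.03% and 4.03%, and 9.77% and 14.1% of all rows. The largest values in SU-DHL-4 were PTPN6 for Ento+AZD against Ento, at -0.79 (limma's adjusted p = 0.149), and BLNK for AZD against Ento, at -0.72. In DG-75 they were PTPN6 for AZD against Ento, at 0.704 (limma's adjusted p = 0.151), and CD79B for Ento+AZD against Ento, at 0.697 (0.0961). The excess of the Ento+AZD change over the added changes of Ento and AZD was called for 0 members and 0% of all rows in each line, and 0 members had an unadjusted p under 0.05 in limma, beside 1276 and 672 of all rows.

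Levels in SU-DHL-4 were compared with those in DG-75 under each treatment, in a fit of all 24 arrays. Under DMSO, CD79B was higher in SU-DHL-4 by 1.16 ± 0.21 on the log2 scale (SE, n = 3 against 3; limma's adjusted p = 0.000207), or 2.23-fold, and under Ento by 1.24 (limma's adjusted p = 8.23e-05). Under AZD the difference was 0.66 (limma's adjusted p = 0.0311), under 2-fold, and under Ento+AZD 0.36 (0.281). PTPN6 went the other way. It differed by -0.18 under DMSO and -0.56 under Ento, neither past the threshold, and was lower in SU-DHL-4 by -1.72 ± 0.34 under AZD (limma's adjusted p = 0.000630) and by -1.77 ± 0.34 under Ento+AZD (limma's adjusted p = 0.000417), or 3.29-fold and 3.41-fold. As above, these folds are of probe values. These 4 calls held in each of the 6 fits with an array left out and in each of the 9 other settings. One member of 8 was thus called under each treatment, beside 7.2%, 8.03%, 6.51% and 7.28% of all rows under DMSO, Ento, AZD and Ento+AZD.

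**Figure D4:**
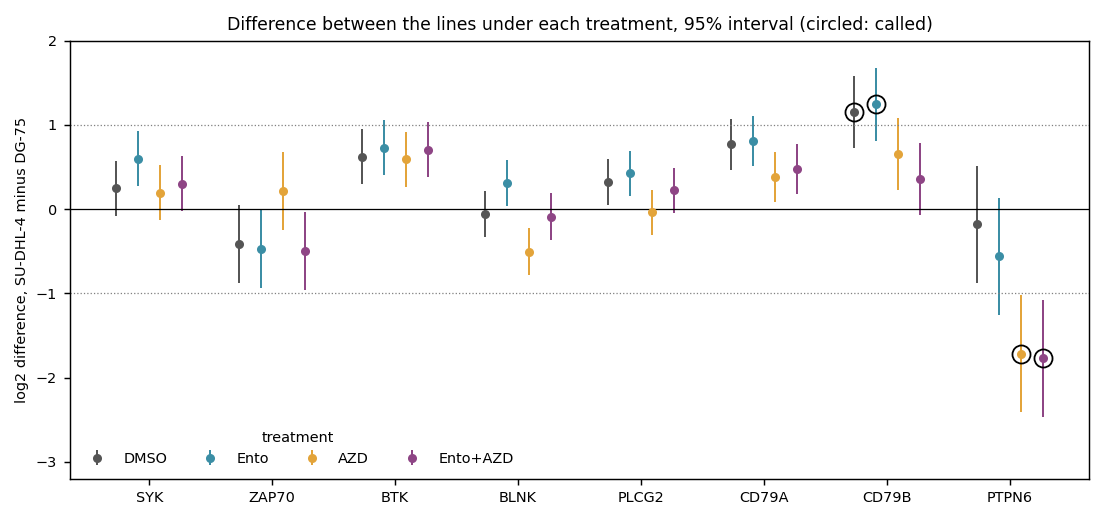
Difference of each member between SU-DHL-4 and DG-75 (vertical axis, log2, positive when higher in SU-DHL-4) under the 4 treatments, with 95% intervals from limma; dotted lines mark 2-fold and circles the called values. CD79B is circled under DMSO (1.16) and Ento (1.24), and PTPN6 under AZD (-1.72) and Ento+AZD (-1.77).

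At the adjusted p alone, 3, 5, 4 and 3 of the 8 members differed between the lines under DMSO, Ento, AZD and Ento+AZD, beside 17.6%, 19.7%, 15.1% and 17.2% of all rows. BTK was among them under every treatment, higher in SU-DHL-4 by 0.59 to 0.73, and CD79A under all but AZD, by 0.48 to 0.81. SYK was higher in SU-DHL-4 under Ento by 0.60 ± 0.16 (SE; limma's adjusted p = 0.00762), with 0.25 under DMSO (0.345), 0.20 under AZD (0.513) and 0.30 under Ento+AZD (0.227). PLCG2 differed under Ento, by 0.42, and BLNK under AZD, by -0.50. ZAP70 did not pass under any treatment. Some of these passes were lost when an array was left out. PLCG2 under Ento was lost without SU-DHL-4 replicate 1 or 2 or DG-75 replicate 3 (limma's adjusted p up to 0.0878), BTK under AZD without SU-DHL-4 replicate 2 (0.0971) and BLNK under AZD without SU-DHL-4 replicate 3 or DG-75 replicate 1 (up to 0.0572). CD79A under Ento+AZD was lost without SU-DHL-4 replicate 1 or 2 or DG-75 replicate 3 (limma's adjusted p up to 0.114). CD79B under AZD was lost without replicate 1 or 2 of SU-DHL-4 or 2 or 3 of DG-75 (limma's adjusted p up to 0.181). The same 5 were lost with only the arrays compared in the fit (limma's adjusted p = 0.0681 to 0.0916).

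Whether a response differed between the lines was tested as an interaction. 0 of 8 members were called for Ento (0.00782% of rows), AZD (0%) or Ento+AZD (0.0352%), and 1, 4 and 2 members had an unadjusted p under 0.05 in limma, beside 4.43%, 6.16% and 6.51% of all rows. For PTPN6 the response in SU-DHL-4 less that in DG-75 was -1.54 ± 0.30 under AZD (SE; unadjusted p = 8.45e-05, limma's adjusted p = 0.281) and -1.59 ± 0.30 under Ento+AZD (limma's adjusted p = 0.0776). The second passed only with a prior variance that follows the level and robust estimation (limma's adjusted p = 0.0282). For SYK the response to Ento was larger in SU-DHL-4 by 0.35, with a 95% interval of -0.03 to 0.73 that includes 0.

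Beyond the 8 members, 70 further genes of the pathway were listed by role, likewise with earlier results known, of which 68 had a row used here. Under DMSO, 21 of the 68 (30.9%) differed between the lines by the call rule, 16 higher and 5 lower in SU-DHL-4, beside 7.2% of all rows, and the median difference was 0.21, beside 0.01 over all rows. Under Ento 25 (36.8%) were called, under AZD 17 (25%) and under Ento+AZD 19 (27.9%), beside 8.03%, 6.51% and 7.28% of all rows. With 1 array left out, the number under DMSO was 18 to 24. Of 9 receptor and coreceptor genes, 4 were higher in SU-DHL-4 under DMSO, among them the inhibitory Fc receptor gene FCGR2B by 4.92 ± 0.36 (SE; limma's adjusted p = 3.79e-10). Of 20 adaptors, exchange factors and PI3 kinase genes, 6 were higher and 2 lower. BANK1, a B-cell scaffold, was higher by 4.60 and LAT2, a membrane adaptor of B cells, by 2.69, whereas GAB1, a docking adaptor, was lower by -5.26 ± 0.26 (limma's adjusted p = 5.02e-13). GAB1 lay between 2.49 and 3.48 on the SU-DHL-4 DMSO arrays and between 7.63 and 8.54 on those of DG-75. In the line with the lower values, the DMSO means of FCGR2B, BANK1, PRKCB and GAB1 were 3.70, 3.03, 2.96 and 2.84, near the T-cell marker CD3D (means of 3.34 for SU-DHL-4, 3.16 for DG-75). At such levels a probe's value may not follow the amount of transcript, so these 4 differences are between probe values and do not give the ratio of transcripts.

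Of 22 genes of second messengers and downstream relays, 5 were higher and 1 lower in SU-DHL-4 under DMSO. PRKCB, the protein kinase C of the step after PLCG2, was higher by 4.98 ± 0.33 (SE; limma's adjusted p = 6.03e-11), with DMSO arrays between 7.20 and 8.31 in SU-DHL-4 and between 2.70 and 3.24 in DG-75. RASGRP1, which links diacylglycerol to RAS, was higher by 3.07. Of 9 SRC family kinases and their regulators 1 was higher and 2 were lower, and of 8 inhibitors that act inside the cell 0 were called (limma), with a median difference of 0.35. FCGR2B and the other inhibitory coreceptors were counted with the receptors.

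**Figure D5:**
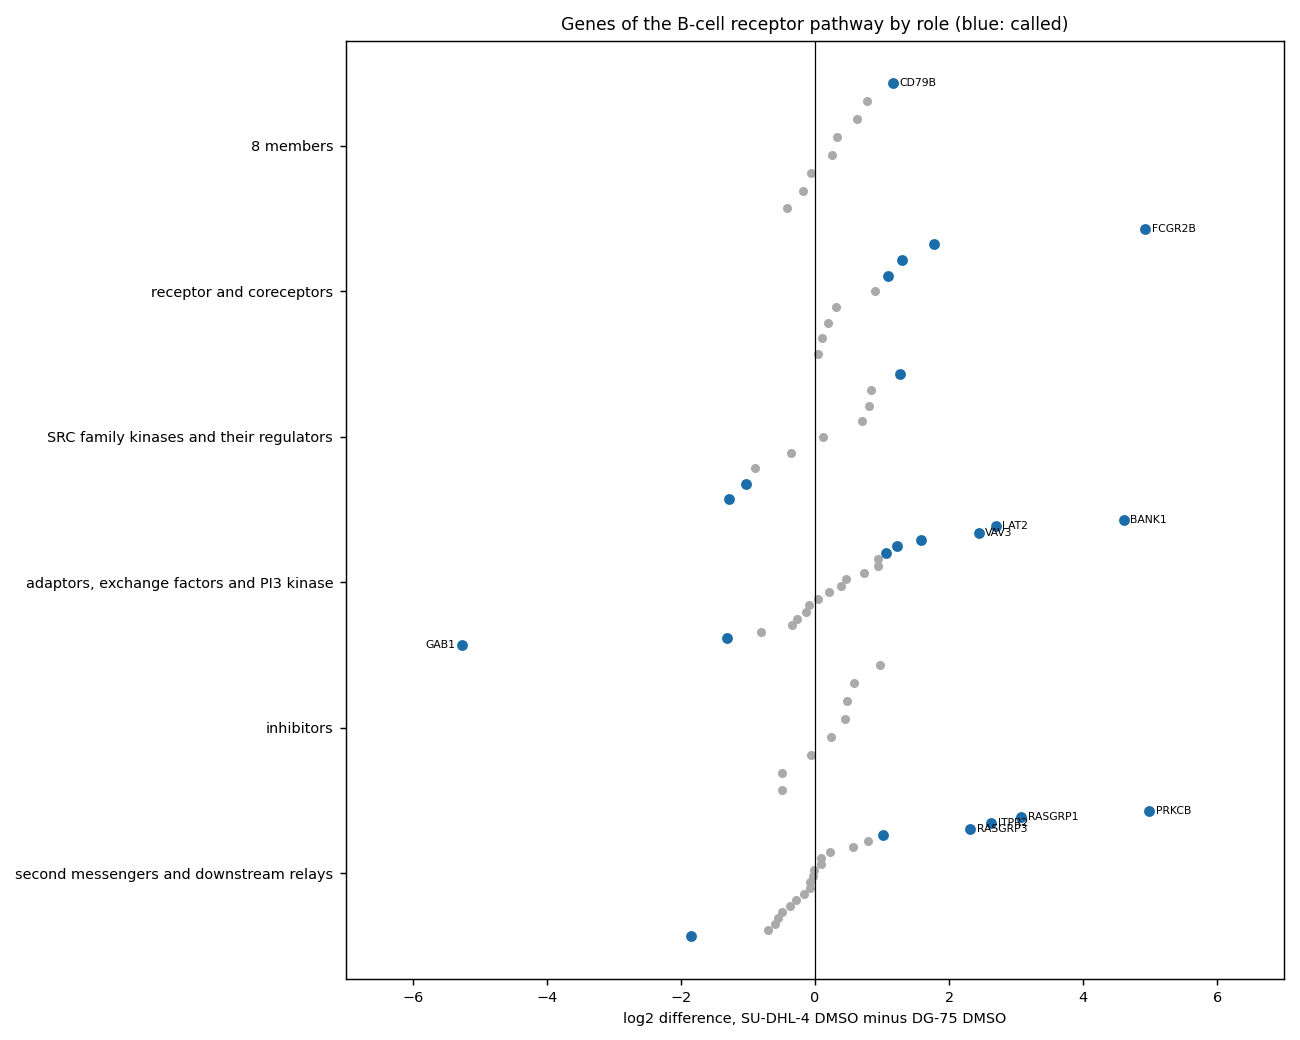
Log2 difference between SU-DHL-4 and DG-75 under DMSO (horizontal axis, positive when higher in SU-DHL-4) for the 8 members and the 68 other pathway genes, sorted by size within each role; blue points were called and grey points were not, with names at CD79B and at the called genes farthest from 0. PRKCB, FCGR2B and BANK1 lie at 4.60 to 4.98 and GAB1 at -5.26, farther from 0 than any member.

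Under treatment, 0 of the 68 were called against DMSO in SU-DHL-4 under Ento, AZD or Ento+AZD (0.0508%, 0.18% and 1.19% of all rows; limma), and under Ento+AZD 1 was called without DMSO replicate 1 or without DMSO replicate 3. In DG-75, 0 were called under Ento, 2 (2.94%) under AZD and 3 (4.41%) under Ento+AZD, all lower, beside 0.00391%, 0.18% and 0.833% of all rows. LCK, a kinase of the SRC family, fell by 1.77 and RASGRP1 by 1.15 under Ento+AZD, with limma's adjusted p = 0.00698 and 0.0348. Under AZD, LCK fell by 1.29 (limma's adjusted p = 0.0471). Neither AZD call held in any of the 9 fits with an array or a number left out, and the Ento+AZD count was 0 to 4 in such fits, with 0 without DMSO replicate 1, Ento+AZD replicate 1, number 1 or number 2. AZD against Ento called DGKA, an inhibitor that consumes diacylglycerol, in SU-DHL-4, at -1.30 (limma's adjusted p = 0.0128), 1 of the 68 beside 0.379% of all rows. In DG-75, AZD against Ento called 2 of the 68 (2.94%) and Ento+AZD against Ento 2, all lower, beside 0.344% and 0.657% of all rows. Over both lines 2 were called under Ento+AZD against DMSO, both lower, beside 0.856% of all rows.

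The patterns most like that of SYK over the 24 arrays, after subtraction of each line's mean, were those of BACH2, AFF3 and CD40, with Pearson correlations of 0.841, 0.823 and 0.821. With the values as deposited they were 0.903, 0.886 and 0.859. For PTPN6 the closest were ICAM3 (0.831), NCF4 (0.801) and PDLIM2 (0.789), for CD79B BCRP2 (0.938), GTF2IRD2 (0.901) and OS9 (0.889), and for CD79A OS9 (0.891), ATP2A3 (0.890) and STK40 (0.883). PLCG2 was closest to ITPR2 (0.916). BTK was closest to RPL39 (0.849), BLNK to DOCK8 (0.854) and ZAP70 to STK39 (0.823). These are the highest of 25161 symbols over arrays that share treatments and replicate numbers, and are given as a description.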

How the data were processed

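RNA of the 24 samples was hybridized to Clariom D arrays. The authors normalized the intensities by robust multi-array average (RMA) and deposited log2 values per gene symbol, with probes mapped through affycoretools; genome build and annotation version are not given in the sources used here. Base 2 is that of RMA and is not stated in words. All columns were matched to samples by name. From the deposited log2 values, limma 3.58.1 in R 4.3.3 (lmFit, contrasts.fit, eBayes) was run on all 25575 rows. Within a line the model had treatment and replicate number, which stood for the batch term of the study's model, whose batch is not described there. The comparison over both lines and the interaction had replicate number within line, and the comparison of the lines had the 8 groups alone. Adjustment over all rows followed Benjamini and Hochberg, and the thresholds of the study (adjusted p under 0.05, fold over 2) were used. The number of arrays limits the precision. The calculations were tested on simulated data. Named were the 8 members, up to 6 called pathway genes with the largest change per comparison, and for each member the 3 symbols with the highest correlation; GAB1, PRKCB and other pathway genes follow this rule, and 1 called gene is counted but not reported here by name. Members, lists and alternatives were chosen with earlier results of these data known. Alternatives were other scalings, fits, filters, thresholds and omitted arrays. Figures were drawn with matplotlib 3.10.9.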

Additional observations from a re-analysis of the deposited data

Results flagged for a closer look

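The PTPN6 change under AZD was negative in SU-DHL-4 and positive in DG-75, and neither change was called (limma's adjusted p = 0.103 and 0.205). The gene was flagged because its same-numbered differences had opposite signs in the 2 lines, so those signs are no test of it. Same-numbered arrays differed from DMSO by -1.20, -0.73 and -0.80 on the log2 scale in SU-DHL-4 and by 0.32, 1.22 and 0.34 in DG-75. The response in SU-DHL-4 less that in DG-75 was -1.54 ± 0.30 (SE), which did not pass the test of the difference itself over all rows (limma's adjusted p = 0.281). DMSO replicate 2 of DG-75, at 5.40, was the lowest DG-75 array for this gene, and without it the difference was -1.25 ± 0.28 (limma's adjusted p = 0.381). With each of the 12 arrays left out in turn the difference was -1.72 to -1.25.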

How the results depend on the processing

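Of 3640 recomputed values of the 8 members (192 values, 1 choice changed at a time), 14 lost a call, 19 gained one and 0 called values changed sign. The treat test was an exception, since it also replaced the 2-fold minimum. A further 187 uncalled values changed sign, and none of these was over 0.342 in size in the main fit. The number of members called moved as follows. Without the replicate block, Ento+AZD against DMSO in SU-DHL-4 had 0 in place of 1 (PTPN6, limma's adjusted p = 0.144). The treat test of limma at a 1.2-fold change took the place of the 2-fold minimum. With it, Ento+AZD in DG-75 had 0 in place of 1 (CD79B, limma's adjusted p = 0.126). The comparison of the lines then had 2 under DMSO and 3 under Ento in place of 1. The members gained there differed by less than 2-fold, namely CD79A (0.77 under DMSO, 0.81 under Ento) and BTK (0.73 under Ento). With no fold minimum the numbers were 1 for AZD against Ento in SU-DHL-4 and 2 for Ento+AZD over both lines, each in place of 0, and 3, 5, 4 and 3 in place of 1 for the lines under DMSO, Ento, AZD and Ento+AZD. A prior variance with trend and robust estimation gave 1 in place of 0 (PTPN6) for the interaction under Ento+AZD. With arrays or numbers left out, the number ranged from 0 to 1 for AZD and for Ento+AZD against DMSO in SU-DHL-4 and for Ento+AZD in DG-75, and was constant elsewhere. PTPN6 under AZD in SU-DHL-4 was called only without AZD replicate 2 (-1.10, limma's adjusted p = 0.0479). The filter on low rows left out ZAP70. The cause of these shifts was not tested.

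Replicate number was a term of the within-line fits in place of the study's batch term, but the check made did not show that the numbers pair the samples, since not every same-numbered pair of arrays had deviations correlated over 0.1. In SU-DHL-4, 12 of 18 same-numbered pairs did (-0.11 to 0.39, median 0.15), against 1 of 36 pairs of different numbers (median -0.07). In DG-75, 7 of 18 (-0.35 to 0.34) and 11 of 36 did. As a hint from the data, 19 of 24 arrays correlated best with their own number. Dropping the replicate block changed no other call of a member. Over all rows, AZD against DMSO called 46 in each line, but 0 (SU-DHL-4) and 2 (DG-75) after quantile normalization and 0 in both after subtraction of each array's median. These scalings moved the share of higher calls under Ento+AZD from 8.55% to 19.4% and 21.9% in SU-DHL-4 and from 15.02% to 32.9% and 34.5% in DG-75. Median subtraction moved the median of all rows in SU-DHL-4 by 0.12 (Ento), 0.12 (AZD) and 0.13 (Ento+AZD).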
